A study of Mus musculus with 24 samples.

Results

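The transcripts described here are 10 genes of the urea cycle and of ammonia handling, named by gene symbol, with earlier results of these data known but by a rule that uses no measured value: Cps1, Otc, Ass1, Asl, Arg1, Nags, Slc25a15, Slc25a13, Glud1 and Gls2. All 10 were found among the 55421 genes of the deposited count and FPKM tables, and all 10 passed the filter on low counts that left 13847 genes for testing. RNA was taken from hepatocytes that were isolated by a 2-step liver perfusion from C57BL/6J mice. The labels number the 24 libraries as replicates without naming animals, and each library was taken as 1 animal. The ND+veh group (n = 8) ate normal diet with vehicle throughout, the HFD+veh group (n = 7) received vehicle and was moved to a high-fat diet with 60% of calories from fat, and the HFD+eRapa group (n = 9) ate the same high-fat diet with encapsulated rapamycin, an inhibitor of the mTOR kinase, at 42 ppm. Vehicle or rapamycin began at 4 months of age, on normal diet, and the diets were then set apart from 18 months of age for 9 weeks. Every animal given rapamycin in these groups ate the high-fat diet, so the drug on normal diet was not analysed here, and HFD+eRapa animals had received the drug before the high-fat diet as well as during it.

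The liver disposes of ammonia in series along the lobule. Hepatocytes near the portal vein release ammonia from glutamine and other amino acids and convert it to urea, with the first steps in mitochondria and the later ones in the cytosol, and a thin layer of hepatocytes around the central vein captures what is left as glutamine. The genes of the cycle are known to respond to protein intake, fasting, glucagon and glucocorticoids.

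The members fall into roles. NAGS makes N-acetylglutamate, the obligate activator of carbamoyl phosphate synthetase (CPS1), which fixes ammonia and bicarbonate. Ornithine transcarbamylase (OTC) joins carbamoyl phosphate to ornithine to give citrulline. Argininosuccinate synthase (ASS1) and argininosuccinate lyase (ASL) add the nitrogen of aspartate and release arginine and fumarate, and arginase (ARG1) splits arginine into urea and ornithine. Slc25a15 encodes the mitochondrial ornithine carrier, and Slc25a13 encodes citrin, which exports aspartate to the cytosol. Glutamate dehydrogenase (GLUD1) and the liver-type glutaminase (GLS2) feed ammonia to the cycle.

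On GRCm38, all 10 are annotated as protein-coding genes. Cps1 lies on chromosome 1 (67123026 to 67231259, plus strand), Otc on chromosome X (10252305 to 10321024, plus), Ass1 on chromosome 2 (31470207 to 31520672, plus), Asl on chromosome 5 (130011258 to 130029247, minus) and Arg1 on chromosome 10 (24915221 to 24927484, minus). Nags lies on chromosome 11 (102145513 to 102149477, plus), Slc25a15 on chromosome 8 (22375551 to 22398597, minus), Slc25a13 on chromosome 6 (6041218 to 6217173, minus), Glud1 on chromosome 14 (34310727 to 34345265, plus) and Gls2 on chromosome 10 (128194457 to 128210004, plus). Exons of Nags overlap Gm11586 and exons of Gls2 overlap Spryd4, each on the opposite strand, and the sources used here do not state whether reads were counted by strand, so reads of these pairs may not be told apart.

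Upstream sequence was available from RefSeq for 6 of the members. The 250 bases before the annotated start are shown for Otc, the member with the smallest adjusted p in the diet comparison, and for Slc25a13 and Glud1, which were higher with eRapa. Each sequence is read on the strand of its gene, and capitals mark a CCAAT box (CCAAT) or a GC box (GGGCGG) on either strand.
Otc, GRCm38.p6 chrX:10252055-10252304, plus strand: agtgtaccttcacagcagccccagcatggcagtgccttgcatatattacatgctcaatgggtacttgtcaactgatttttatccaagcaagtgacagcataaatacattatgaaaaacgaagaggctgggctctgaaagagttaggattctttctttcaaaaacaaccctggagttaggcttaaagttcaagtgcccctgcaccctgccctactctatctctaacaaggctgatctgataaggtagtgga
Slc25a13, GRCm38.p6 chr6:6217174-6217423, minus strand: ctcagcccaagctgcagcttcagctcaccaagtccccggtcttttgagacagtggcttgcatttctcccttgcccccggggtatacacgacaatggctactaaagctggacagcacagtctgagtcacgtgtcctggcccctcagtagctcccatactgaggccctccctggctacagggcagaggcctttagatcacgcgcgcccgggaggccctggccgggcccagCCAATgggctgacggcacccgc
Glud1, GRCm38.p6 chr14:34310477-34310726, plus strand: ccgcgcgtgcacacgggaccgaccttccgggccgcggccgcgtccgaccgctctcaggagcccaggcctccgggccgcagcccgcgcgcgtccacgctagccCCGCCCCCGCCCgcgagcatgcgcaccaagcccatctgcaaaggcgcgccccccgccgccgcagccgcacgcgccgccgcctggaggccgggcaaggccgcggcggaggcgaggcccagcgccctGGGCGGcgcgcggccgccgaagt
The 3 windows differed in base composition, with a GC content of 43.6% for Otc, 62.8% for Slc25a13 and 82.0% for Glud1, beside a median of 52.4% over 32851 windows of the same length (quartiles 45.2% and 61.2%). Both strands were searched for 7 motifs, none of which contains another. The GC box was found in 5 of 7 member windows (1 gene has a pair of starts) and in 32.7% of all windows, CCAAT in 1 and in 33.8%, and the nuclear receptor half-site AGGTCA in 1 and in 14.0%. The TATA box TATAAA (12.4% of all windows), the C/EBP core TTGCNNAA (9.56%), the cAMP response element TGACGTCA (1.55%) and the HNF4 site CAAAGTCCA (0.384%) were in none of the 7. These matches describe letters in the windows and were not tested for any role.

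The libraries held 17739252 to 25945134 counted reads, so the members were deeply measured, with 527 reads for the lowest value of any member (Nags in HFD+veh replicate 6). Values are given within a gene as CPM, the count per 1000000 reads of a library scaled by TMM factors, and as FPKM, which is per length, between genes. Markers of the labelled cell type were high in every library: 8 hepatocyte transcripts such as Alb and Apoa1 summed to 65999 to 167254 CPM in ND+veh, 106329 to 174993 in HFD+veh and 58307 to 162611 in HFD+eRapa. Macrophage markers were also present and differed between animals, with 9 transcripts summing to 40.0 to 1255 CPM in ND+veh, 158 to 5249 in HFD+veh and 14.3 to 1066 in HFD+eRapa, and none of the 9 was at 0 in every library of a group. In bulk RNA, fewer cells of a type and less RNA per cell cannot be told apart.

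By FPKM, Ass1 was the most abundant member, with a mean of 1514 over all 24 libraries, followed by Arg1 (811), Cps1 (660), Glud1 (440), Asl (268), Otc (178), Gls2 (151), Slc25a15 (96.6), Slc25a13 (73.4) and Nags (37.4). Most neighbours in this order kept it in 21 or more of 24 libraries: Ass1 exceeded Arg1 in 23 of 24 libraries and Slc25a13 exceeded Nags in 24 of 24. Glud1 exceeded Asl, and Asl exceeded Otc, in 21 of 24 each, but in only 4 of 7 HFD+veh animals. Cps1 exceeded Glud1 in 21 of 24, but in only 6 of 9 HFD+eRapa animals. Otc and Gls2 were not clearly ordered, with Otc higher in 17 of 24. The order of Arg1 and Cps1 differed the most by group, since Arg1 was the higher in 1 of 8 ND+veh, 6 of 7 HFD+veh and 8 of 9 HFD+eRapa animals. Together the 10 genes took a median of 1.13% of counted reads in ND+veh (0.739 to 1.32%), 1.14% in HFD+veh (0.737 to 1.80%) and 1.03% in HFD+eRapa (0.885 to 1.22%), so the groups overlapped in their total.

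**Figure D1:**
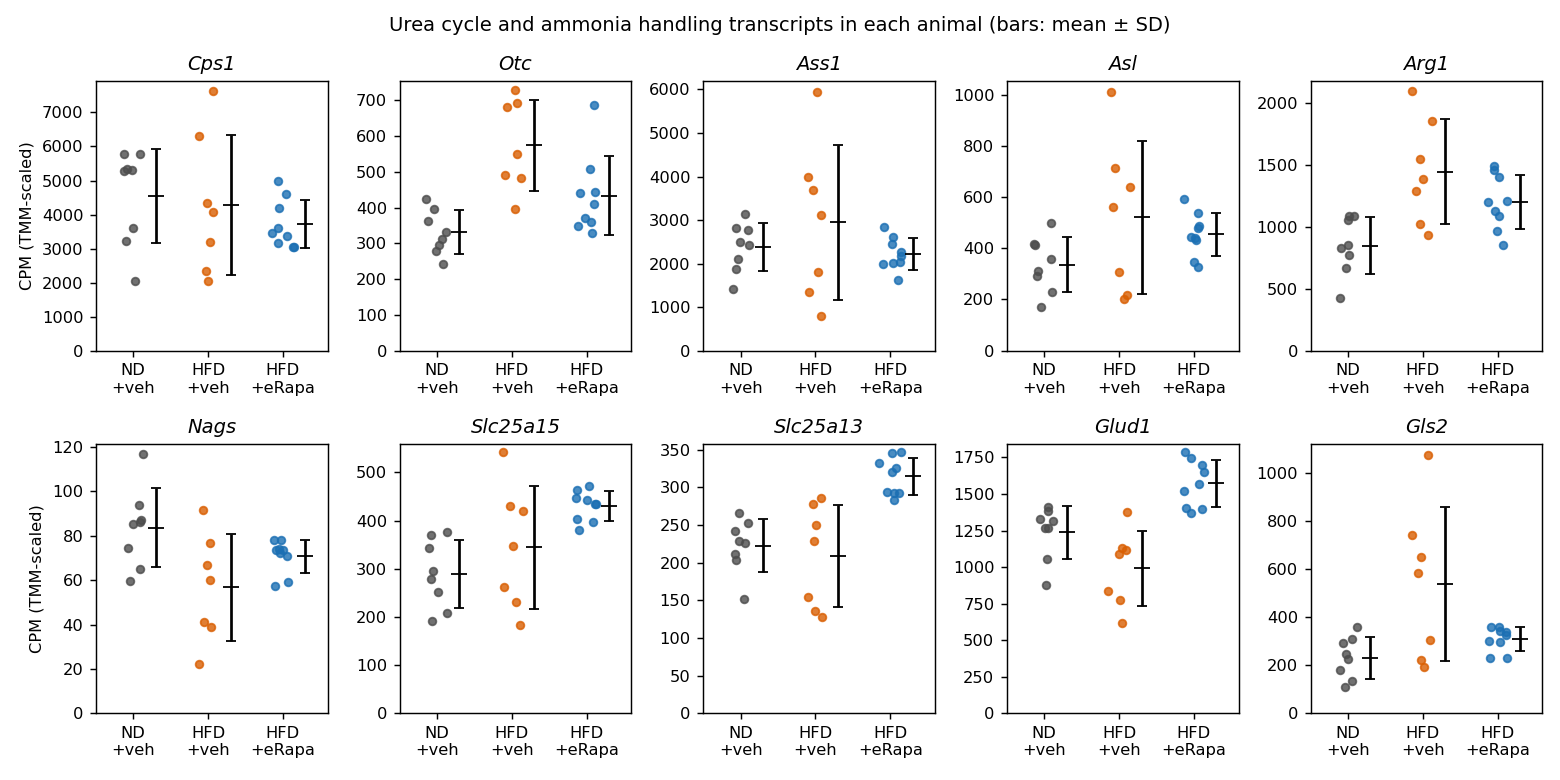
Levels of the 10 members in each animal, as TMM-scaled CPM on a linear axis from 0 in each panel, for ND+veh (grey, n = 8), HFD+veh (orange, n = 7) and HFD+eRapa (blue, n = 9), with mean ± SD beside the points. HFD+veh points spread the most in panels such as Ass1, from 806 to 5936 CPM, whereas HFD+eRapa points for Slc25a13 lie between 284 and 347 CPM, above every ND+veh animal.

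The first comparison asked how the high-fat diet changed these transcripts in vehicle-treated old mice. Otc, Arg1 and Gls2 rose and Nags fell, while Cps1, Ass1, Asl, Slc25a15, Slc25a13 and Glud1 did not pass the test. Thus 3 of 10 members were called higher, beside 16.0% of all tested genes, and 1 of 10 was called lower, beside 9.86%. No member had groups without overlap, which 2.44% of all genes had. The median log2 fold change of the members was 0.28, beside 0.05 for all genes.

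At the entry to the cycle, the Nags transcript was called lower, by a narrow margin, and the Otc transcript was called higher. Nags was 59.5, 85.6 and 117 CPM (lowest, median, highest) in ND+veh and 22.2, 59.9 and 91.4 CPM in HFD+veh. Its groups overlapped widely, although 6 of 7 HFD+veh animals were below the ND+veh median. The log2 fold change was -0.56 ± 0.20 (SE; edgeR adjusted p = 0.046). This call was fragile: it was lost in 10 of 15 refits that each left out 1 animal, with adjusted p up to 0.089 (without HFD+veh replicate 3), and leaving out any of ND+veh replicates 1, 2, 3, 5, 6 and 7 or HFD+veh replicates 3, 4, 5 and 6 was enough. It was kept in 5 of the 11 other settings run.

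Otc was 242, 322 and 424 CPM in ND+veh and 395, 551 and 729 CPM in HFD+veh. Only the lowest HFD+veh animal fell within the ND+veh range. Otc was 1.74-fold higher (log2 fold change 0.80 ± 0.16, edgeR adjusted p = 0.0019), with 7 of 7 HFD+veh animals higher than the ND+veh median. Cps1, which supplies the substrate of OTC, was 2062, 5288 and 5775 CPM in ND+veh and 2048, 4068 and 7643 CPM in HFD+veh. Its difference of -0.09 log2 units was not called (95% interval -0.58 to 0.40, edgeR adjusted p = 0.82), an interval that leaves room for changes of either sign.

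In the cytosol, the last enzyme showed the clearest difference. Arg1 was 428, 844 and 1089 CPM in ND+veh and 932, 1384 and 2096 CPM in HFD+veh, a 1.71-fold rise (log2 0.77 ± 0.19, edgeR adjusted p = 0.0069) with 7 of 7 animals higher than the median control. Ass1 and Asl had higher means on high-fat diet but a spread too wide for a call. Ass1 was 1414, 2457 and 3149 CPM in ND+veh and 806, 3108 and 5936 CPM in HFD+veh (log2 0.31 ± 0.28, edgeR adjusted p = 0.43). Asl was 170, 334 and 499 CPM against 202, 561 and 1011 CPM (log2 0.63 ± 0.28, edgeR adjusted p = 0.095).

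The mitochondrial carriers were not called. Slc25a15 differed by 0.25 ± 0.18 log2 units (edgeR adjusted p = 0.31) and Slc25a13 by -0.09 ± 0.16 (edgeR adjusted p = 0.69). Of the enzymes that release ammonia, Gls2 had the largest fold change of any member. It was 109, 238 and 359 CPM in ND+veh and 193, 584 and 1076 CPM in HFD+veh, a 2.32-fold rise (log2 1.21 ± 0.30, edgeR adjusted p = 0.0070). The groups overlapped, because 2 of 7 HFD+veh animals lay below the ND+veh median while 4 exceeded every ND+veh animal. Glud1, which releases ammonia from glutamate, was 879, 1293 and 1411 CPM in ND+veh and 617, 1087 and 1378 CPM in HFD+veh. Its difference of -0.32 ± 0.14 was not called (edgeR adjusted p = 0.091), but it was called without ND+veh replicate 4 (-0.41, adjusted p = 0.037), without HFD+veh replicate 5 (-0.42, adjusted p = 0.034) or with limma on log2(FPKM + 1) (-0.40, adjusted p = 0.049).

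Markers of other cell types moved with the same contrast. On high-fat diet 3 of 9 macrophage markers were called higher, as were 3 of 3 tested cholangiocyte markers (6 listed, whose summed level had a median of 5.74 CPM in ND+veh and 106 in HFD+veh), 2 of 3 tested neutrophil markers, 1 of 7 endothelial and 1 of 7 stellate markers. When a score of 13 immune transcripts was added to the edgeR fit, Otc (log2 0.74, adjusted p = 0.0087), Arg1 (0.94, 0.0036) and Gls2 (1.60, 0.00042) stayed called. The Nags difference shrank to -0.23 (adjusted p = 0.42) in that fit, and Asl passed the threshold (0.99, adjusted p = 0.013). With a score of 17 endothelial, stellate and cholangiocyte transcripts in its place, the Otc, Arg1 and Gls2 calls again stayed and the Nags call again did not (-0.31, adjusted p = 0.13), while Asl (0.93, adjusted p = 0.0034) and Slc25a15 (0.48, adjusted p = 0.024) were called higher.

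**Figure D2:**
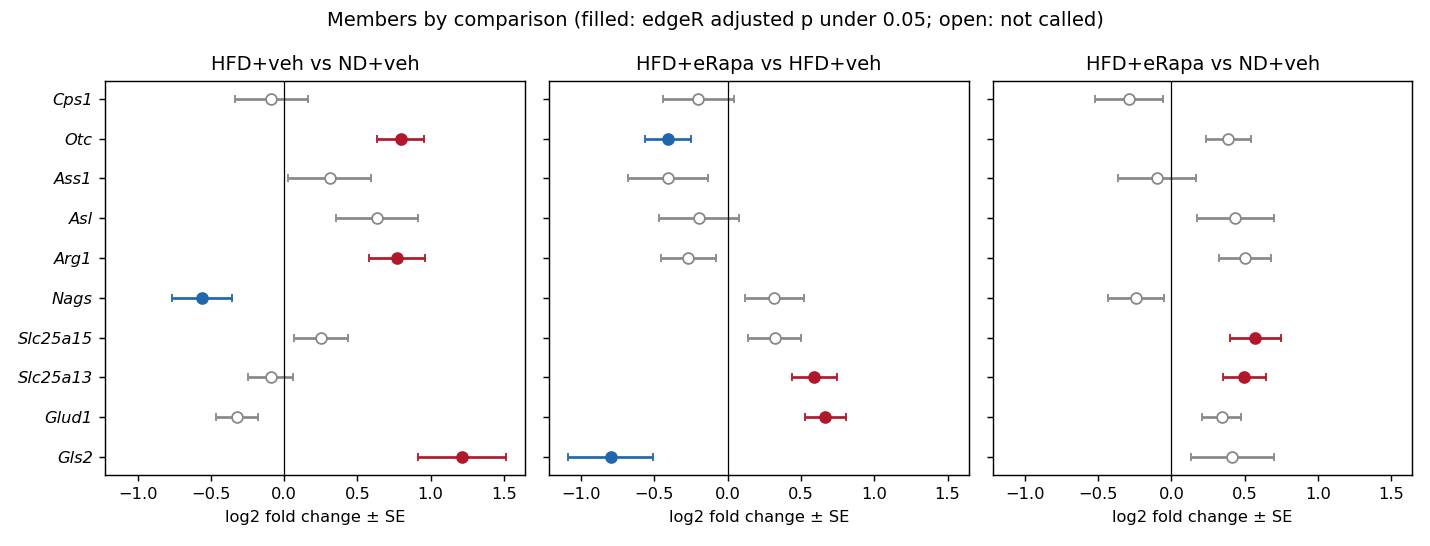
Log2 fold change ± SE of the 10 members (rows) from the edgeR fit over 24 libraries, in 3 panels for HFD+veh against ND+veh, HFD+eRapa against HFD+veh and HFD+eRapa against ND+veh. Filled points are called (red higher, blue lower), which holds for Otc, Arg1, Gls2 and Nags in the first panel, Slc25a13, Glud1, Otc and Gls2 in the second, and Slc25a15 and Slc25a13 in the third.

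The second comparison asked what eRapa changed in animals on high-fat diet. Glud1 and Slc25a13 rose, Otc and Gls2 fell, and the other 6 members were not called. The 2 members called higher stand beside 10.9% of all tested genes and the 2 called lower beside 21.1%, which is close to the share of members called lower. Groups without overlap were found for 0 of 10 members and for 2.59% of all genes. The members' median log2 fold change was -0.20, beside -0.04 for all genes. HFD+veh animals enter both this comparison and the first, so opposite signs in both are not independent.

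Glud1 was 617, 1087 and 1378 CPM in HFD+veh and 1372, 1567 and 1786 CPM in HFD+eRapa. The groups met at 1 animal each, HFD+veh replicate 5 and HFD+eRapa replicate 2, and otherwise did not overlap. The rise was 1.59-fold (log2 0.67 ± 0.14, edgeR adjusted p = 0.0015) and was called in all 16 refits that left out 1 animal. Slc25a13, the aspartate exporter, was 128, 229 and 286 CPM in HFD+veh and 284, 320 and 347 CPM in HFD+eRapa. All 9 treated animals lay above the HFD+veh median, and the rise was 1.51-fold (log2 0.59 ± 0.15, edgeR adjusted p = 0.0060), again called in all 16 such refits. The ornithine carrier Slc25a15 was 183, 347 and 541 CPM against 381, 435 and 472 CPM, with all 9 treated animals above the HFD+veh median, but the difference was not called (log2 0.32 ± 0.18, edgeR adjusted p = 0.18). It was called without HFD+veh replicate 1 (0.47, adjusted p = 0.039), the highest animal of its group.

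Both falls were close to the threshold. Otc was 395, 551 and 729 CPM in HFD+veh and 329, 409 and 686 CPM in HFD+eRapa (log2 -0.41 ± 0.16, edgeR adjusted p = 0.049). The groups overlapped, with 8 of 9 treated animals below the HFD+veh median. Its call was lost in 12 of 16 refits without 1 animal (HFD+veh replicates 1, 3, 5, 6 and 7 and HFD+eRapa replicates 1 and 4 to 9, adjusted p up to 0.10 without HFD+veh replicate 1), and it was kept in 3 of 11 other settings. Gls2 was 193, 584 and 1076 CPM in HFD+veh and 231, 328 and 360 CPM in HFD+eRapa (log2 -0.80 ± 0.29, edgeR adjusted p = 0.038). All 9 treated animals lay below the HFD+veh median, yet none lay below the lowest HFD+veh animal. The Gls2 call was lost in 8 of 16 such refits (HFD+veh replicates 1, 2, 5 and 7 and HFD+eRapa replicates 4, 5, 6 and 8), and without HFD+veh replicate 1 the log2 fold change was -0.54 (adjusted p = 0.13). It was kept in 5 of 11 other settings.

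The remaining members gave differences of -0.20 ± 0.24 for Cps1, -0.41 ± 0.27 for Ass1, -0.20 ± 0.27 for Asl, -0.27 ± 0.19 for Arg1 and 0.32 ± 0.20 for Nags on the log2 scale, none called, with edgeR adjusted p from 0.22 to 0.61. For Cps1 the 95% interval ran from -0.68 to 0.27, so neither a fall nor a small rise could be told from no change.

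Here too the macrophage markers moved with the contrast, with 7 of 9 called lower with eRapa, as were 7 of 7 stellate, 7 of 7 endothelial, 2 of 3 neutrophil and 1 of 3 cholangiocyte markers. With the immune score in the edgeR fit, Glud1 stayed called (log2 0.54, adjusted p = 0.038) and so did Gls2 (-1.15, adjusted p = 0.0072), while Slc25a13 (0.41, adjusted p = 0.11) and Otc (-0.35, adjusted p = 0.26) did not. With the endothelial, stellate and cholangiocyte score, Glud1 (0.47, adjusted p = 0.083) and Slc25a13 (0.30, adjusted p = 0.25) were no longer called, Gls2 was (-1.36, adjusted p = 0.00059) and Asl was added (-0.74, adjusted p = 0.047).

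The third comparison set eRapa on high-fat diet against vehicle on normal diet. Both mitochondrial carriers rose, no member fell, and the other 8 were not called. The 2 members called higher stand beside 6.93% of all genes. The count of 0 called lower stands beside 6.54%. In all, 5 of 10 members had an unadjusted edgeR p under 0.05, after 6 and 4 of 10 in the first and second comparisons. The share of all genes at that level is not given here, so these counts have no background beside them. By TMM-scaled CPM, groups without overlap were found for 2 of 10 members, the same carriers, and for 3.37% of all genes. The median log2 fold change was 0.40, beside -0.03 for all genes. Stellate markers moved with this contrast, with 5 of 7 called lower in HFD+eRapa (summed level 28.2 to 216 CPM in ND+veh and 17.5 to 83.4 in HFD+eRapa), and 1 of 3 cholangiocyte markers was called higher. Of 9 macrophage, 7 endothelial and 3 neutrophil markers, 0, 0 and 0 were called by edgeR, and 0, 0 and 1 had an unadjusted p under 0.05.

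Slc25a15 was 192, 288 and 375 CPM in ND+veh and 381, 435 and 472 CPM in HFD+eRapa, so that the lowest treated animal lay just above the highest control. The rise was 1.49-fold (log2 0.57 ± 0.17, edgeR adjusted p = 0.029). By FPKM the Slc25a15 groups did overlap, since HFD+eRapa replicates 4 and 5 (99.9 and 98.0) lay below ND+veh replicate 1 (102.6). Slc25a13 was 152, 227 and 266 CPM in ND+veh and 284, 320 and 347 CPM in HFD+eRapa, a 1.41-fold rise (log2 0.50 ± 0.15, edgeR adjusted p = 0.024), without overlap in CPM. Its FPKM did not overlap either (at most 77.1 in ND+veh and at least 79.9 in HFD+eRapa). ND+veh replicate 4, by TMM-scaled CPM the lowest control for 9 of 10 members, bore on both calls: without it Slc25a15 gave 0.49 (adjusted p = 0.079) and Slc25a13 gave 0.42 (adjusted p = 0.077). The TMM factor of ND+veh replicate 4 was 1.30, the largest of the 24 libraries. By FPKM it was not the lowest control for members such as Slc25a15 (67.1, beside 54.4 in ND+veh replicate 8) and Glud1 (396, beside 327). The Slc25a15 call was also lost without ND+veh replicate 6 (0.57, adjusted p = 0.052), 7 (0.55, 0.054) or 8 (0.52, 0.057). Adding the immune score or the endothelial, stellate and cholangiocyte score to the edgeR fit left both carriers called. Slc25a13 gave 0.48 (adjusted p = 0.011) and 0.36 (adjusted p = 0.033), and Slc25a15 gave 0.56 (adjusted p = 0.0078) and 0.41 (adjusted p = 0.026).

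Otc (log2 0.39 ± 0.15, edgeR adjusted p = 0.096), Arg1 (0.50 ± 0.18, 0.067) and Glud1 (0.34 ± 0.13, 0.088) had all 9 treated animals above the ND+veh median but did not pass the test. Arg1 passed in several other fits: without HFD+eRapa replicate 9 (0.55, edgeR adjusted p = 0.046), with DESeq2 (adjusted p = 0.043), with only the groups compared (0.043), with the replicate block (0.0097) and with the immune score (0.040). Glud1 passed with only the groups compared (0.35, edgeR adjusted p = 0.023). Cps1 was below the ND+veh median in 9 of 9 treated animals, at 3043, 3467 and 4972 CPM against 2062, 5288 and 5775 CPM, and its difference of -0.29 ± 0.23 was not called (edgeR adjusted p = 0.48). Nags likewise lay below the ND+veh median in 9 of 9 (57.2, 73.4 and 78.2 CPM, log2 -0.24 ± 0.19, edgeR adjusted p = 0.47), and it was called only when the endothelial, stellate and cholangiocyte score entered the fit (-0.47, adjusted p = 0.0076). Ass1 (-0.10 ± 0.26, edgeR adjusted p = 0.87), Asl (0.44 ± 0.27, 0.32) and Gls2 (0.42 ± 0.28, 0.38) were not called.

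The HFD+veh animals differed among themselves more than the ND+veh animals did. The coefficient of variation of CPM was larger in HFD+veh than in ND+veh for all 10 members, reaching 60.3% for Ass1 and 59.5% for Gls2 against 23.6% and 37.5%. In HFD+eRapa it was the lowest of the 3 groups for 9 of 10 members, down to 7.15% for Slc25a15 and 7.78% for Slc25a13, with Otc (25.5%) the exception. These spreads are a description, and their difference was not tested. HFD+veh replicate 1 was the highest of its group for 8 of 10 members, and it exceeded every ND+veh animal for 8. At the other end, replicates 4 and 6 were each the lowest for 5, and replicate 4 lay below every ND+veh animal for 6.

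Macrophage markers followed this order only in part. HFD+veh replicates 1 and 2, each above every ND+veh animal for 8 members, had summed macrophage markers of 158 and 161 CPM, and replicates 3, 4 and 6, above the group median for 0 members, had 3000, 2288 and 5249 CPM. Replicate 5, however, was above the group median for 9 of 10 members and had 2689 CPM. Otc behaved unlike the other members in replicate 6: at 551 CPM it stood at the group median and above every ND+veh animal, whereas Nags (22.2 CPM) and Ass1 (806 CPM) were there at the lowest level of all 24 libraries.

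**Figure D3:**
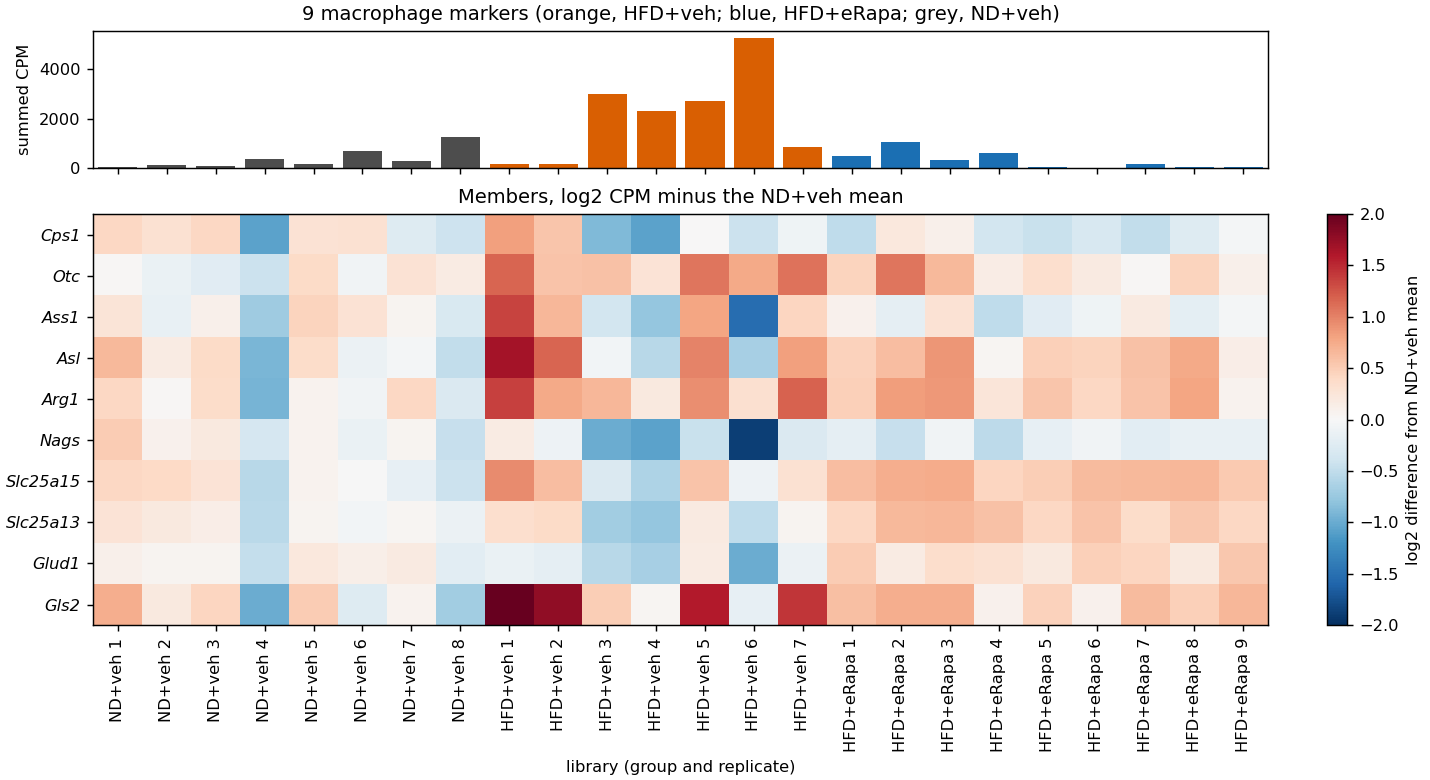
Upper panel, summed CPM of 9 macrophage markers in each library (grey ND+veh, orange HFD+veh, blue HFD+eRapa). Lower panel, log2 CPM of the 10 members in the same libraries minus the ND+veh mean, from blue (lower) to red (higher); HFD+veh replicates 1 and 2 are red for most members with 158 and 161 CPM of macrophage markers, while replicates 3, 4 and 6 are blue for several with 2288 to 5249 CPM.

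The zonal partners of the members were read as transcript ratios within an animal, which do not depend on library size. Gls2, which yields ammonia in periportal cells, was set against Glul, glutamine synthetase of the pericentral layer. The FPKM ratio of Gls2 to Glul was 0.406, 0.717 and 1.32 (lowest, median, highest) in ND+veh, 0.958, 1.33 and 16.9 in HFD+veh and 0.275, 0.599 and 1.20 in HFD+eRapa. It exceeded 1 in 2 of 8, 6 of 7 and 2 of 9 animals, so HFD+veh stood above both other groups with some overlap. On the log2 scale the mean rose by 1.69 from ND+veh to HFD+veh (two-sided exact permutation test, p = 0.0028, adjusted over 6 comparisons p = 0.0056) and changed by -1.94 from HFD+veh to HFD+eRapa (p = 0.00087 by the same exact permutation test, adjusted p = 0.0052). HFD+eRapa and ND+veh differed by -0.25 (exact permutation adjusted p = 0.52).

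Oat, the pericentral ornithine aminotransferase, uses the same ornithine as Otc. The FPKM ratio of Oat to Otc was 0.750, 1.53 and 3.40 in ND+veh, 0.0861, 0.292 and 2.25 in HFD+veh and 0.627, 1.58 and 2.78 in HFD+eRapa. It exceeded 1 in 6 of 8, 1 of 7 and 8 of 9 animals, and the 1 HFD+veh animal above 1 was replicate 2. The log2 mean fell by 2.02 from ND+veh to HFD+veh (exact permutation adjusted p = 0.0063), rose by 2.04 from HFD+veh to HFD+eRapa (exact permutation adjusted p = 0.0056), and differed by 0.02 between HFD+eRapa and ND+veh (exact permutation adjusted p = 0.95). Both ratios kept their side of the threshold in every comparison when any 1 animal was left out.

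Zonal markers as a whole moved with these ratios. Of 12 periportal markers, a list that includes Ass1 and Gls2, 8 were called higher and 0 lower in HFD+veh against ND+veh. Of 12 pericentral markers, which include Glul and Oat, 8 were called lower and 0 higher. The shares of all tested genes there were 16.0% higher and 9.86% lower. In HFD+eRapa against HFD+veh, 6 periportal markers were called lower and 10 pericentral ones higher, beside 21.1% and 10.9% of all tested genes. In HFD+eRapa against ND+veh, 4 periportal markers were called higher and 0 pericentral ones were called. Of the pericentral markers, 1 had an unadjusted edgeR p under 0.05. The shares of all tested genes were 6.93% higher and 6.54% lower in that comparison. The pericentral sum was 5704 to 10881 CPM in ND+veh, 1129 to 6937 in HFD+veh and 6118 to 10682 in HFD+eRapa, and the HFD+veh value of 6937 CPM belonged to replicate 2, next to a range of 1129 to 2456 in the other 6. The part of the zonal markers in the ratios was not tested.

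**Figure D4:**
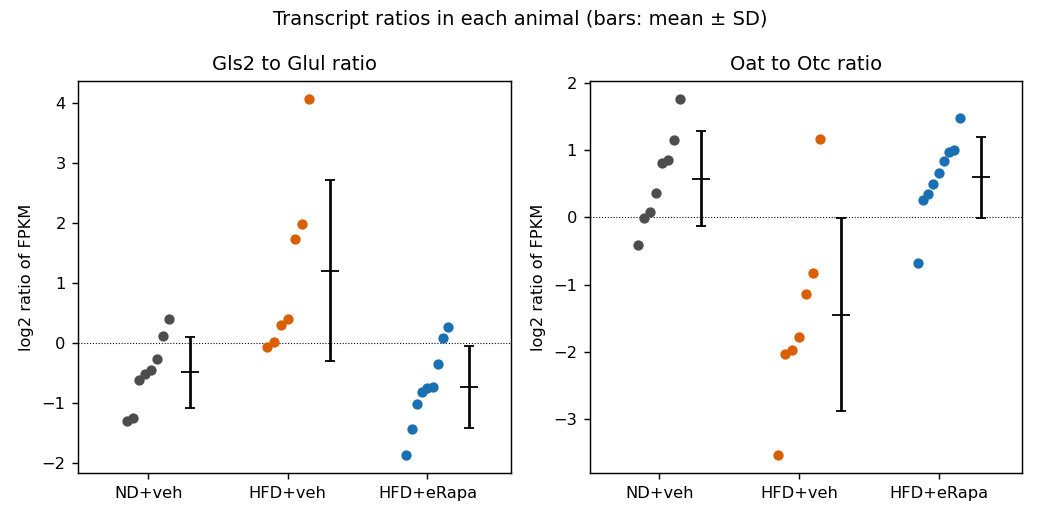
Log2 ratio of FPKM in each animal, Gls2 to Glul at left and Oat to Otc at right, for the 3 groups with mean ± SD; the dotted line marks equal FPKM. HFD+veh has the highest Gls2 to Glul values, up to 4.08, and the lowest Oat to Otc values, down to -3.54, with replicate 2 of that group at 1.17 on the right.

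Genes around the cycle were followed in 5 lists that hold 52 symbols, 46 of them tested. The list counts stand beside the shares of all tested genes. Those shares were 16.0% higher and 9.86% lower for HFD+veh against ND+veh. They were 10.9% and 21.1% for HFD+eRapa against HFD+veh, and 6.93% and 6.54% for HFD+eRapa against ND+veh. No list count was tested against these shares. In the glutamine capture list (7 tested), 0 were called in HFD+veh against ND+veh, where 0 had an unadjusted edgeR p under 0.05 as well, 2 were higher and 1 lower in HFD+eRapa against HFD+veh, and 0 were called in HFD+eRapa against ND+veh, where 1 had an unadjusted edgeR p under 0.05. Glul was 184, 397 and 783 CPM in ND+veh, 77.8, 224 and 933 in HFD+veh and 343, 738 and 947 in HFD+eRapa. It rose with eRapa against HFD+veh (log2 1.10 ± 0.39, edgeR adjusted p = 0.032), a call lost without any 1 of HFD+veh replicates 3 to 7 or HFD+eRapa replicates 4 and 6 (adjusted p up to 0.076) with either marker score, with no filter (0.063) and with only the groups compared (0.051), and it was not called lower on high-fat diet (-0.45 ± 0.39, adjusted p = 0.40) unless HFD+veh replicate 2 was left out (adjusted p = 0.014).

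The ammonia channel Rhbg (1.13, 1.29 and 2.52 mean CPM) and the glutamine transporter Slc38a3 (868, 1335 and 1252 mean CPM, in the order ND+veh, HFD+veh, HFD+eRapa) were called in none of the 3 comparisons. Without ND+veh replicate 4 Rhbg rose from ND+veh to HFD+eRapa (edgeR adjusted p = 0.0027), and with HFD+veh replicate 6 also left out it rose from ND+veh to HFD+veh (1.54, adjusted p = 0.025). Slc38a3 was called once a marker score entered the edgeR fit. It was then higher in HFD+veh against ND+veh (1.14, adjusted p = 0.00040 with the immune score, and 0.94, adjusted p = 0.00074 with the endothelial, stellate and cholangiocyte score, beside 0.62 with neither) and lower in HFD+eRapa against HFD+veh (-0.72, adjusted p = 0.024, and -0.87, adjusted p = 0.0061, beside -0.09).

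Among genes that support the cycle (10 tested), 3 were higher and 1 lower in HFD+veh against ND+veh, 2 higher and 2 lower in HFD+eRapa against HFD+veh, and 3 higher and 0 lower in HFD+eRapa against ND+veh. Aqp9, a channel for glycerol and urea, showed the largest separation: it was 286, 377 and 431 CPM in ND+veh, 131, 196 and 358 in HFD+veh and 421, 509 and 609 in HFD+eRapa. Aqp9 fell on high-fat diet (log2 -0.80 ± 0.16, edgeR adjusted p = 0.0015) and rose with eRapa against HFD+veh without overlap (1.28 ± 0.16, adjusted p = 1.1e-05). Both calls stayed in all alternatives run. Against ND+veh, Aqp9 was also called higher in HFD+eRapa (0.48 ± 0.15, edgeR adjusted p = 0.029). That call was less stable, kept in 6 of 11 other settings and in 11 of 17 refits that left out 1 animal. Sirt5, the mitochondrial deacylase known to act on CPS1, was 7.11, 9.36 and 11.5 CPM in ND+veh, 5.52, 10.3 and 12.9 in HFD+veh and 11.2, 14.7 and 19.9 in HFD+eRapa. It rose with eRapa against HFD+veh (0.66 ± 0.16, edgeR adjusted p = 0.0035, not called with either marker score) and against ND+veh (0.73 ± 0.15, adjusted p = 0.0017).

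Fh1, fumarase, which takes up the fumarate released by ASL, rose on high-fat diet with vehicle (172.8 to 269 mean CPM, log2 0.64 ± 0.16, edgeR adjusted p = 0.0066) and stood at 276 mean CPM with eRapa (0.68 ± 0.15 against ND+veh, adjusted p = 0.0031, without overlap). Slc25a12, the other aspartate carrier, was called in the opposite direction to Slc25a13 with eRapa. It was 10.8, 13.3 and 16.5 CPM in ND+veh and 16.8, 19.4 and 26.4 in HFD+veh, a rise without overlap (log2 0.61 ± 0.11, edgeR adjusted p = 0.00073), and it was lower with eRapa (13.0, 15.1 and 18.7 CPM, -0.40 ± 0.11, adjusted p = 0.0070, or 0.058 with the immune score in the fit). Car5a, the mitochondrial carbonic anhydrase that supplies bicarbonate to CPS1, was called in no comparison (log2 -0.16, 0.36 and 0.20).

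Of 11 genes that deliver amino acid nitrogen, 5 were higher and 0 lower in HFD+veh against ND+veh, beside 16.0% and 9.86% of all genes. In HFD+eRapa against HFD+veh, 2 were higher and 2 lower, beside 10.9% and 21.1%. In HFD+eRapa against ND+veh, 1 was higher and 0 lower, beside 6.93% and 6.54%. Sds, serine dehydratase, which releases ammonia from serine, was 12.8, 63.7 and 161 CPM in ND+veh, 163, 403 and 992 in HFD+veh and 88.8, 135 and 237 in HFD+eRapa. It rose on high-fat diet without overlap (log2 2.44 ± 0.46, edgeR adjusted p = 0.0010) and fell with eRapa (-1.55 ± 0.43, adjusted p = 0.0091, or 0.054 with the replicate block). Got1, the cytosolic aspartate aminotransferase, rose on high-fat diet (1.01 ± 0.33, edgeR adjusted p = 0.028), a call kept in 5 of 11 other settings. It was lost with limma voom (adjusted p = 0.056), no filter (0.070), only the groups compared (0.084), limma on FPKM (0.051 and 0.055) and without HFD+veh replicate 1 (0.079). The alanine aminotransferase Gpt was called in no comparison, except higher in HFD+eRapa against ND+veh with only the groups compared (edgeR adjusted p = 0.014).

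In the list of arginine and ornithine use (9 tested), 1 was higher and 0 lower in HFD+veh against ND+veh, 3 higher and 3 lower in HFD+eRapa against HFD+veh, and 0 called in HFD+eRapa against ND+veh, where 2 had an unadjusted edgeR p under 0.05. Slc7a2, a cationic amino acid transporter of liver, rose on high-fat diet (log2 0.93 ± 0.27, edgeR adjusted p = 0.016). This call was kept in 7 of 11 other settings and lost with only the groups compared (adjusted p = 0.055), the replicate block (0.053) and limma on FPKM (0.054 and 0.059). Oat rose with eRapa against HFD+veh (1.15 ± 0.41, adjusted p = 0.037), a call lost with either marker score and without any 1 of HFD+veh replicates 1 and 3 to 7 or HFD+eRapa replicates 3 and 6 (adjusted p up to 0.089), as well as with no filter (0.075) and only the groups compared (0.074). On high-fat diet Oat differed by -0.81 (edgeR adjusted p = 0.15), and it was called lower without HFD+veh replicate 2 (-1.63, adjusted p = 0.00064), with limma voom (-1.24, adjusted p = 0.030) and with limma on FPKM (adjusted p = 0.038 and 0.042). Arg2, the mitochondrial arginase, did not pass the filter on low counts. Of 10 regulators, 0 were higher and 1 lower in HFD+veh against ND+veh, 2 higher and 2 lower in HFD+eRapa against HFD+veh, and 0 higher and 1 lower in HFD+eRapa against ND+veh.

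**Figure D5:**
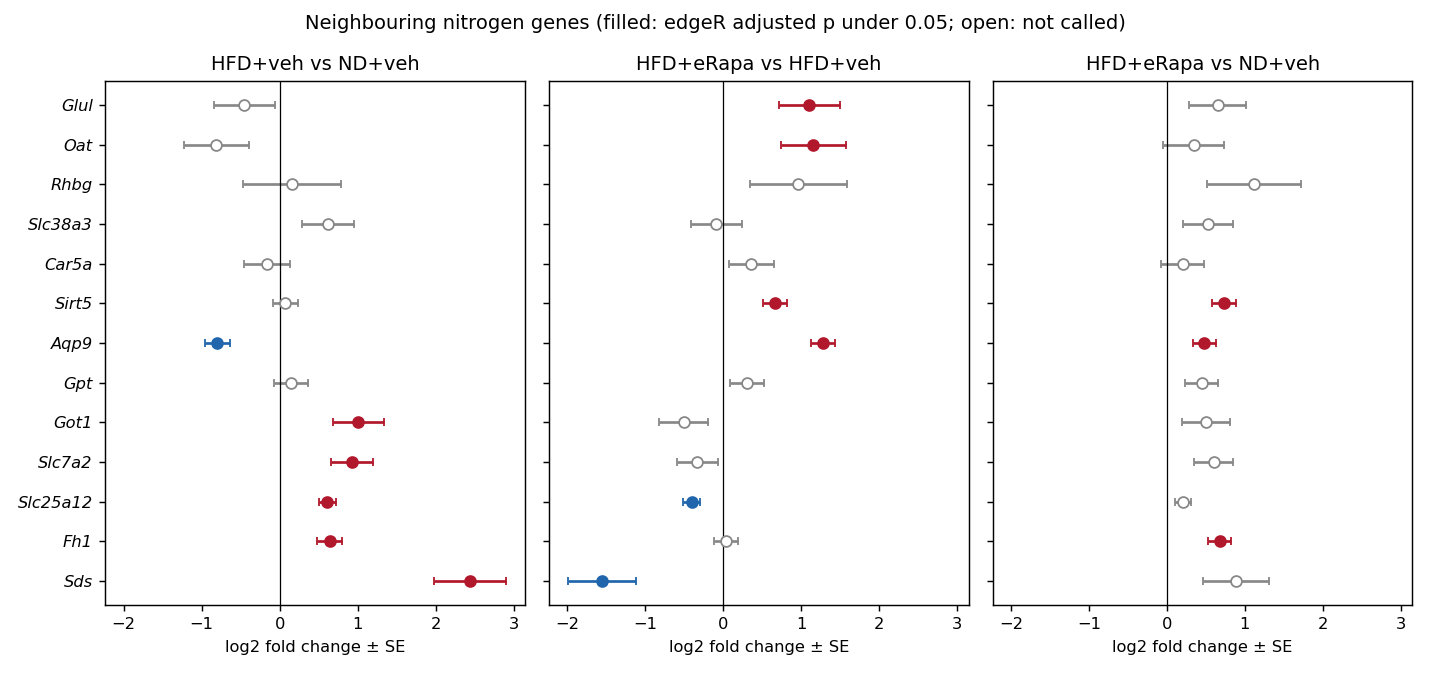
Log2 fold change ± SE of 13 genes around the cycle (rows), in 3 panels for HFD+veh against ND+veh, HFD+eRapa against HFD+veh and HFD+eRapa against ND+veh; filled points are called (red higher, blue lower). Aqp9 moves from -0.80 in the first panel to 1.28 in the second, and Sds from 2.44 to -1.55; both panels use the same HFD+veh animals.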

How the data were processed

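Hepatocyte polyA RNA was sequenced in 24 libraries. Per the labels and the study's methods, the authors aligned reads to mm10 (Gencode vM23) with STAR, filtered them with SAMtools 1.1.0, made the deposited counts per gene with HTSeq 0.11.2, and made the deposited FPKM values with Cufflinks. Whether reads were counted by strand is not given in the sources used here. Groups came from the labels, which give 1 batch. The labels number the libraries as replicates without naming animals. Each was taken as 1 animal, and p-values measure the spread between these libraries, which may in part be technical.

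Counts were tested with edgeR 4.0.16 (R 4.3.3; filterByExpr with a minimum count of 10, TMM, quasi-likelihood F test with robust estimates) over all 24 libraries, with Benjamini-Hochberg adjustment over 13847 genes and a threshold of 0.05. SE was the log2 fold change divided by the root of F, and intervals are at 95%. TMM-scaled CPM were computed from the counts. FPKM ratios of Gls2 to Glul and Oat to Otc were tested on the log2 scale by two-sided exact permutation over animals. FPKM column sums were inflated in a few libraries by single short genes. For the members, the count per 1000000 reads before TMM scaling, divided by FPKM, varied by only 1.83 to 5.58% (CV). TMM-scaled CPM departs further from FPKM, by the TMM factor of each library. These factors ran from 0.848 (HFD+eRapa replicate 2) to 1.30 (ND+veh replicate 4). The ratio to FPKM was not computed for Glul and Oat.

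The genes named were the 10 members, 11 listed partners, and any other gene of the 5 lists that was called without overlap between groups (Slc25a12, Fh1 and Sds). Another listed gene is not reported here. Members and lists were chosen with earlier results of these data known. Gene positions and overlaps came from Gencode M21 on GRCm38, in which 55154 of 55421 gene identifiers were found, and upstream sequences from RefSeq GRCm38.p6. Libraries of one group always differed by more than sampling noise (smallest chi-square per degree of freedom, 11.3), so each was kept as its own sample. Alternatives were DESeq2 1.42.0, limma 3.58.1 on counts (voom) and on log2(FPKM + 1) or log2(FPKM + 0.1), DESeq2 size factors in edgeR, no filter, only the groups compared, the replicate number as a block, marker scores as covariates, leaving out each library, and leaving out a pair of libraries. The scores are means of standardised log2 CPM over the markers tested. The scripts were tested on simulated data.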

Additional observations from a re-analysis of the deposited data

Results flagged for a closer look

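In 75 sets of values (25 named quantities in 3 groups), 1 held an animal that stood apart from its group, and chance alone gives about 3.75. Rhbg, the ammonia channel of the pericentral layer, was at a log2 CPM of 2.51 in ND+veh replicate 4, next to -0.01 for the nearest animal and -1.10 for the lowest. By TMM-scaled CPM that animal also had the lowest level of its group for 9 of the 10 urea cycle and ammonia handling members. By FPKM it was not the lowest for members such as Slc25a15 and Glud1. None of the 10 members was flagged in any group.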

How the results depend on the processing

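Members were called in 4 of 10 genes for HFD+veh against ND+veh, and this count stayed within 1.5 times of 4 under the 11 alternatives and from 3 to 5 when 1 library was left out. The count of 4 for HFD+eRapa against HFD+veh became 2 with limma voom, with no expression filter, with only the groups compared, with the replicate number as a block, and with the immune or the non-parenchymal marker score as a covariate, and it ran from 2 to 4 when 1 library was left out. The count of 2 for HFD+eRapa against ND+veh became 0 with no expression filter, 4 with only the groups compared, and 1 with ND+veh replicate 4 and HFD+veh replicate 6 both left out (an alternative chosen after seeing the data), and it ran from 0 (without ND+veh replicate 4) to 3 when 1 library was left out. With no filter the 2 carriers had edgeR adjusted p of 0.052 (Slc25a15) and 0.055 (Slc25a13). The Otc, Arg1 and Gls2 calls for HFD+veh against ND+veh were kept in all 11 alternatives and all 15 refits that left out 1 library, with adjusted p up to 0.0087, 0.032 and 0.038. No called value turned its direction, and 11 fits of members called in neither setting changed sign, 8 under other alternatives and 3 with 1 library left out.

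For the ratios, the replicate block was an exact sign-flip test on differences between same-numbered libraries, which left out libraries without a partner. The Gls2 to Glul ratio for HFD+eRapa against HFD+veh was then -2.02 (exact sign-flip adjusted p = 0.063). The Oat to Otc ratio was 2.09 (exact sign-flip adjusted p = 0.070), and neither passed the threshold. Both ratios for HFD+veh against ND+veh kept it (exact sign-flip adjusted p = 0.047). Their unadjusted sign-flip p of 0.016 is the smallest that this test can give with 7 pairs. The labels do not state whether the numbers pair the animals, and no pairing was assumed in the main fits. Same-numbered libraries were correlated by log2 CPM after the group mean of each gene was subtracted. These correlations had means of 0.32, -0.24 and -0.20 over 7, 7 and 8 pairs. Of these pairs 5, 2 and 2 were over 0.1, and 2, 0 and 0 libraries correlated best with their own number. No chance level was computed for these correlations, so they do not settle whether numbers are shared in the first comparison. The block gave 2532 genes called for HFD+eRapa against HFD+veh, beside 4432 without it.

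Over all genes, 3584, 4432 and 1865 were called in the 3 comparisons. Counts beyond 1.5 times of these were 2333 with only the groups compared and 2242 with limma on log2(FPKM + 0.1) for the first, 1203 and 948 for the first and second with the immune score, 1872, 763 and 2963 with the non-parenchymal score, 2300 for the first with both libraries left out, and 2106 for the first without HFD+veh replicate 6. On the FPKM scale with 0.1 added, 1081 genes were higher and 1161 lower in the first comparison (2218 and 1366 on counts) and 557 and 1008 in the third (959 and 906). The cause of these changes was not tested.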
